A study of Saccharomyces cerevisiae with 12 samples.

Results

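The first 0.5 h of sporulation was followed in budding yeast of strain SK1, a laboratory background that sporulates readily, by setting total RNA of 0.5 h against total RNA of time zero on the same glass array. One sample of 12 in the series is the 0.5 h sample, and its 2 arrays are 2 of 24. Per the labels, the cells of each time were pooled from 6 separate synchronized cultures grown on 1 day, so the pool is 1 replicate and the spread between cultures is not in the data. No mutation, drug or added agent is named in the labels, and the sources used here give neither the ploidy nor the medium. Both groups compared, 0.5 h and time zero, share strain, day and array type. The other samples used were the 0.0 h sample, which is time-zero RNA set against itself, and the samples of 1.0 and 1.5 h. The A array carried 0.5 h RNA in the dye Cy5 and time-zero RNA in Cy3, and the B array carried them the other way round. All values are log2 ratios of 0.5 h over time zero, so 1 is a 2-fold higher and -1 a 2-fold lower level. A gene counts where both arrays give the same sign, and it is called where both arrays also pass 2-fold.

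Sporulation is how starved diploid yeast leaves the cell cycle. Cells moved to a medium with acetate and no nitrogen source copy their DNA, pass through meiosis and pack the nuclei into spores. The switch is set by the activator Ime1 and the kinase Ime2, which turn on early meiotic genes, while ribosome production is cut back. Permeases and enzymes for amino acids, sulfate and phosphate are among the genes that yeast adjusts within minutes of a change of medium.

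Of 6293 array genes, 6282 had a value on both 0.5 h arrays. A total of 179 genes, 2.85%, were called higher, and 175 genes, 2.79%, were called lower. The same rule called 0 of 6284 genes in either direction on the 0.0 h arrays, where both channels held time-zero RNA; no replicated test lies behind these counts. The 0.0 h arrays were brighter, with 78.7% to 88.1% of genes above blanks in a channel against 27.5% to 57.7% at 0.5 h, so their 0 is no measure of chance calls on arrays as dim as those of 0.5 h. A further look at signs alone found 30.9% of genes above 0 on both 0.5 h arrays, 29.5% below 0 on both and 39.6% with opposite signs. The median over all genes was 0.01. Since each array was centred, a level here is a level relative to the other genes, and a loss of RNA shared by all genes would not show. In a pool of cells, fewer cells with an RNA and less of that RNA per cell cannot be told apart.

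**Figure D1:**
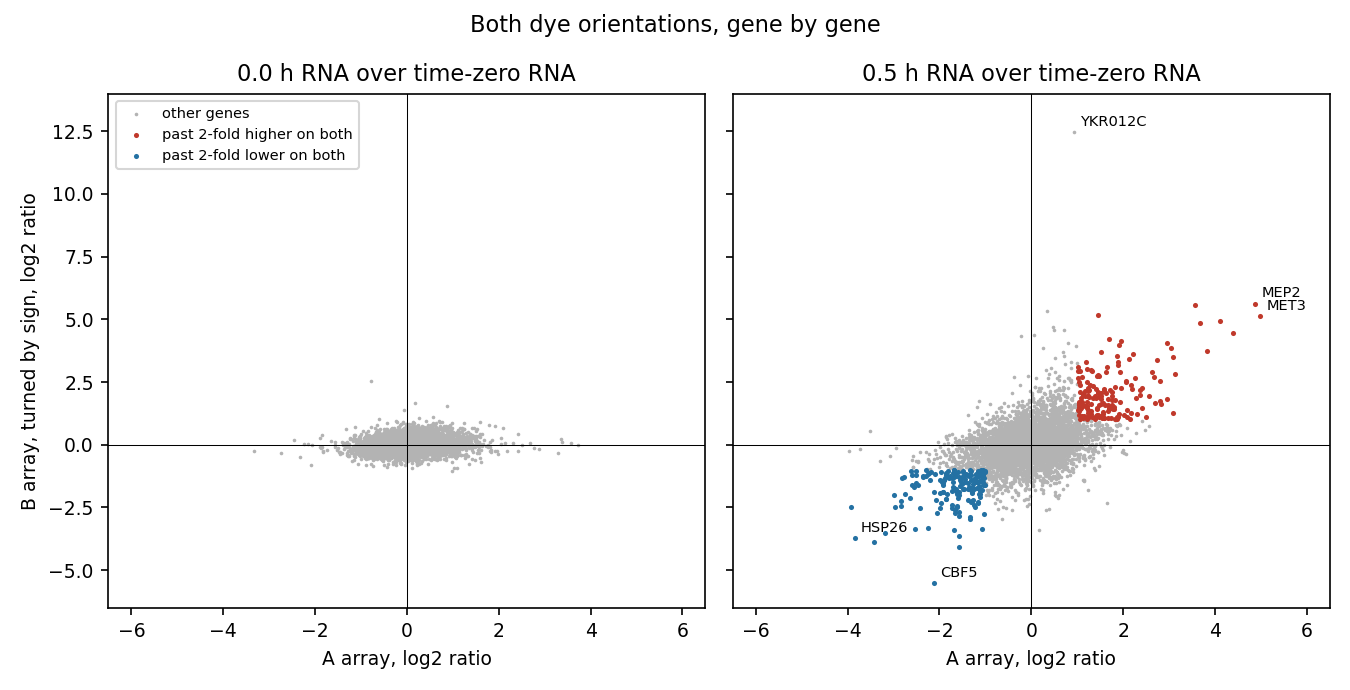
Each point is a gene, with its log2 ratio on the A array (horizontal) and on the B array turned by sign (vertical), for 0.0 h (left) and 0.5 h (right). At 0.0 h no gene is past 2-fold on both arrays, and the spread is wider along the A array; at 0.5 h 179 genes lie past 2-fold in the upper right and 175 in the lower left. YKR012C stands alone at the top, at 12.46 on the B array and 0.92 on the A array.

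The 2 arrays correlated across genes with r = 0.48 at 0.5 h, a sign set by the channel order chosen for B. Genes are not independent replicates, and the points share spots and RNA. The B array was dimmer: 27.5% of its genes were above the 95th percentile of the blank spots in the 0.5 h channel and 44.4% in the time-zero channel, against 45.0% and 57.7% on the A array. On 37 of the 179 genes called higher the time-zero channel, and on 88 of the 175 called lower the 0.5 h channel, was above blanks on neither array. For these a fold is given as a lower bound. It is the measured fold where the gene's dim signal exceeded the lowest signal of any gene above blanks. On a further 53 and 29 that dimmer side was above blanks on 1 array only, and no fold is given for these. Among genes named below they were, of the higher ones, MET3, MET6, MET17, MET22, CYS4, MUP1, SAM3, MEP2, AIF1 and VTC3. So were ARG1, ARO3, SER33, SMF3, PDC6, IME2, HOP1, GLG1, DSE1, RPC37 and VAS1. Of the lower ones they were HSP26, CBF5, SSA4, SIS1, GRE1, HXK1, HXT6, HXT7, TIP1, SLH1, PUT4, SER2, ADE1, RCL1, MRPL9, RPA14 and RPS9B. Their ratio on the other array rests on a signal not above blanks. The 0.0 h arrays were not equally quiet, since 270 genes were past 2-fold higher and 138 past 2-fold lower on the A array, against 7 and 1 on the B array. Among the genes called at 0.5 h, 14 of the higher and 8 of the lower ones were past 2-fold in the same direction on the 0.0 h A array. After the 0.0 h ratio of the same dye orientation was taken off, 125 of the 179 and 134 of the 175 were still past 2-fold on both arrays. Of the genes named below, the calls lost in this way were, among the higher ones, MET16, VTC1, VTC2, PHM8, CAR1, TRP2, BAT1, COT1, SMF3, IME2, RIM4, DMC1, HOP1, ATG1, PEX21, GLG1, EGT2, DSE1, RPC37, POL30 and VAS1. Among the lower ones they were PUT4, INO2, ADE17, TDH2, CTT1, SIP18, GPX1, RCL1, MRT4, RPL3, RPS9B, MRPL17, MRPL9, RPA14 and RFC2. The 0.5 h column of the authors' deposited log2 table did not follow these arrays (r = 0.16 with their mean, -0.71 with their sum before the B array was turned), and it was not used for the values below.

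The genes of sulfate assimilation and methionine synthesis had the highest median of 32 gene lists. This pathway takes up sulfate, activates it with ATP, reduces it to sulfide and builds the sulfide into homocysteine, cysteine, methionine and the methyl donor S-adenosylmethionine. The median of its 32 genes was 1.42 on the mean of both arrays, against 0.01 over all genes, with 1.13 on A and 1.57 on B. Of the 32, 17 were called higher and 0 lower, where 2.85% and 2.79% of all genes were. On the 0.0 h arrays the list median was -0.14.

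The enzymes of the first steps of sulfate use were called higher. MET3, the ATP sulfurylase that activates sulfate, stood at 4.99 on A and 5.13 on B, with its time-zero channel above blanks on A only. All 4 of its spots lay between 4.97 and 5.26, and its 0.0 h mean was -0.21. SUL1, a plasma membrane sulfate permease, was at 2.19 and 2.23, while SUL2, the second sulfate permease, was at -0.53 and 1.02 and showed no common sign. MET14, the kinase of the second activation step, was at 2.67 and 2.69. MET16, the reductase that makes sulfite, was at 1.46 and 2.77, at least 4.33-fold higher because its time-zero channel was not above blanks. MET22, the phosphatase that clears the by-product of that reduction, was at 1.05 and 2.38. Among these 5 called genes the arrays differed least for MET14 and SUL1.

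Sulfite reductase has 2 subunits, and both genes were called. MET10 was at 3.68 and 4.87, 19.3-fold on the mean. MET5 was at 1.70 and 4.22, at least 4.02-fold higher, with a wide gap between the arrays. MET17, which joins sulfide to a homoserine ester, was at 3.57 and 5.57. MET6, the methionine synthase, was at 4.11 and 4.93. The time-zero channel of both genes was above blanks on B only. MET13, which makes the methyl-folate that methionine synthase uses, was at 1.88 and 1.12. Of these called genes MET13 was higher by the least.

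Genes of the branches that leave methionine were called higher as well. SAM2 and SAM1, the S-adenosylmethionine synthetases, were at 2.74 and 3.37 and at 2.69 and 1.68. These genes are near-identical copies, so the spots may share RNA; no source used here gives the probe sequences. CYS3 and CYS4 make cysteine from homocysteine. CYS3 was at 2.79 and 2.53, and CYS4 at 1.62 and 2.89, with the time-zero channel of CYS4 above blanks on B only. STR3, which runs the opposite way, was at 1.21 and 1.46. MUP1, the high-affinity methionine permease, was at 1.59 and 2.16.

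Among the regulators of the pathway only one was called. MET28, a cofactor of the DNA-bound activator, was at 2.41 and 2.24, at least 5.01-fold higher. MET4, the activator itself, was at -0.78 and -0.24. MET30, the ubiquitin ligase subunit that holds Met4 in check, was at 0.04 and 0.85, and MET32, a DNA-binding partner of Met4, at 0.04 and -0.09. MET31, the other DNA-binding partner, was at -3.09 and -0.45 but was not above blanks on both arrays. Apart from the 17 called genes, SAM4 (0.63 and 1.78), STR2 (0.12 and 1.31), MET8 (0.07 and 0.90) and MET30 shared a positive sign on both arrays, MET4, MET12 (-0.67 and -0.14) and MET31 a negative one. The remaining 8 members had opposite signs.

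**Figure D2:**
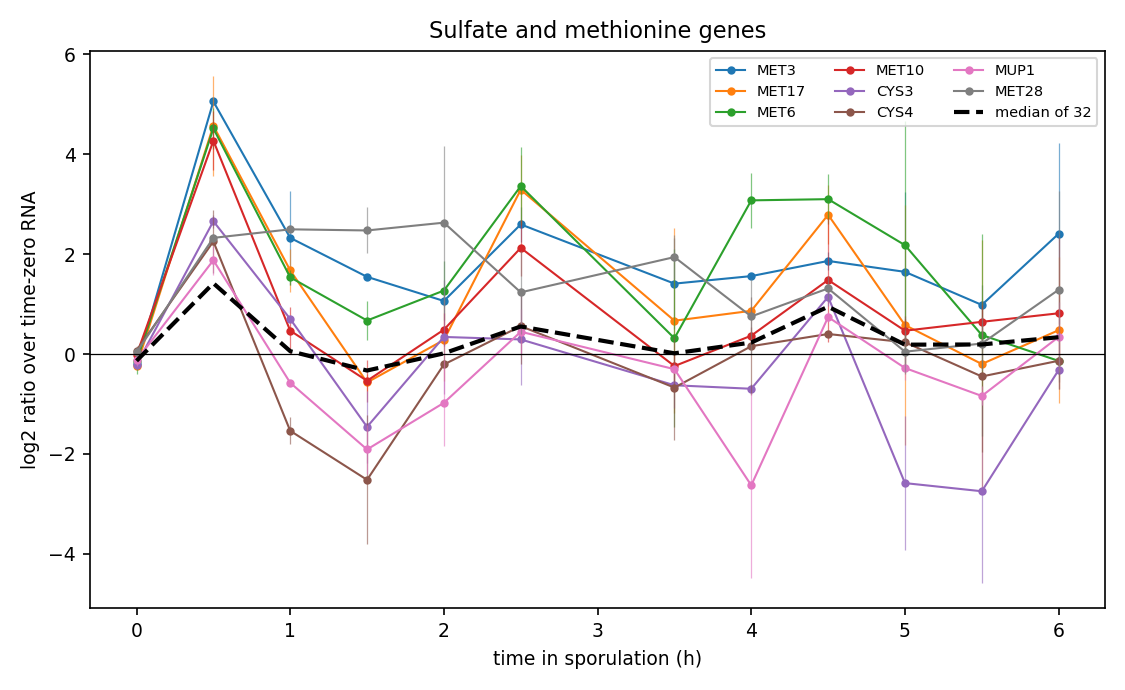
Log2 ratio over time-zero RNA (vertical) by hours of sporulation (horizontal) for 8 genes of the sulfate and methionine list; points are means of the A and B arrays, thin vertical lines join the arrays, and the dashed line is the median of the list. All but MET28 have their highest mean at 0.5 h, and CYS4 goes from 2.25 at 0.5 h to -2.52 at 1.5 h.

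The list median was 0.06 at 1.0 h, -0.33 at 1.5 h and 0.55 at 2.5 h, and the number called higher went from 17 at 0.5 h to 6 at 1.0 h and 2 at 1.5 h, with 2 and 4 called lower at those times. Over all genes 3.86% were called higher and 4.16% lower at 1.0 h, and 5.1% and 4.91% at 1.5 h. At 2.5 h and at 4.5 h, 8 of 32 were called higher again, beside 141 of 6284 and 167 of 6258 genes. The list median was 0.95 at 4.5 h. All these times share the time-zero RNA. MET10 was at 4.27 on the mean at 0.5 h, 0.47 at 1.0 h and -0.54 at 1.5 h. MET17 went through 4.57, 1.68 and -0.57, and CYS3 through 2.66, 0.70 and -1.46. MET28 was the exception among the called members, at 2.33, 2.50 and 2.47. In the difference of 0.5 h from the mean of 1.0 and 1.5 h, from which the time-zero RNA drops out, 27 of 32 members were higher at 0.5 h, against 3172 of 6270 genes, and the median difference was 1.19 against 0.01 over all genes.

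**Figure D3:**
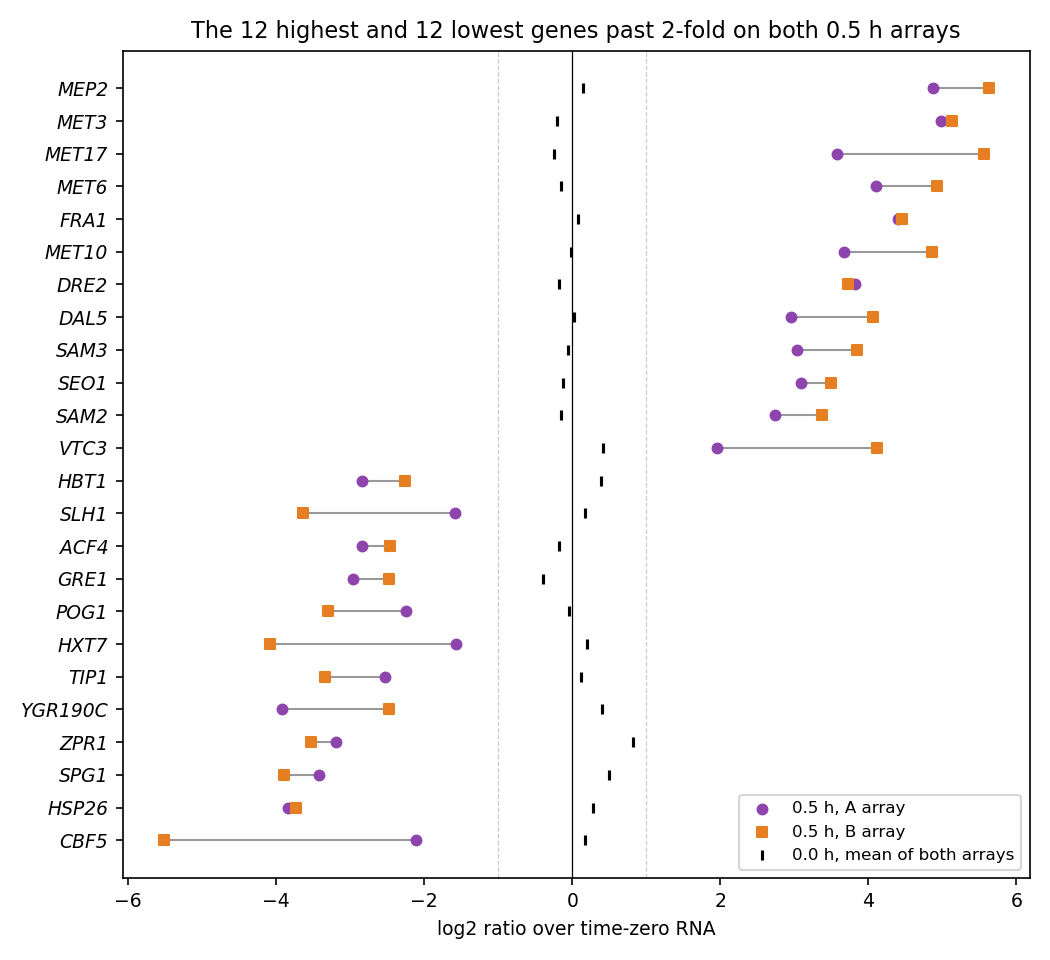
The 12 highest and the 12 lowest genes among those past 2-fold on both 0.5 h arrays and above blanks, with the A array (circles), the B array (squares) and the 0.0 h mean (ticks) on a log2 axis; dashed lines mark 2-fold. Sulfur and methionine genes fill 6 of the 12 highest places with SAM3, and the 0.0 h means stay within 2-fold of time zero.

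Some of the highest called genes lay outside the sulfate and methionine list. MEP2, the high-affinity ammonium permease, was at 4.88 on A and 5.62 on B, with its time-zero channel above blanks on B only. FRA1, a cytosolic protein of iron sensing, was at 4.40 and 4.46. DRE2, which passes electrons in the assembly of cytosolic iron-sulfur clusters, was at 3.82 and 3.72. The arrays lay closer together for FRA1 and DRE2 than for MEP2. SAM3, the S-adenosylmethionine permease, was at 3.04 and 3.85. SEO1, a putative permease, was at 3.09 and 3.50. AIF1, a mitochondrial protein of yeast cell death, was at 2.26 and 2.67. None of these genes had a 0.0 h mean past 2-fold.

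The phosphate response was the second list by median under the main processing. Its genes make and move phosphate and polyphosphate, and in yeast they are turned on by the factor Pho4 when phosphate runs low. The median of 22 genes was 0.90, 8 were called higher and 0 lower, 18 were above 0 on both arrays and 0 were below 0 on both. Over all genes these shares were 2.85%, 2.79%, 30.9% and 29.5%. The vacuolar transporter chaperones, which make polyphosphate, were all called. VTC3 was at 1.96 and 4.12, VTC4 at 1.53 and 3.69, VTC2 at 1.21 and 3.01, and VTC1 at 1.73 and 1.09. The first 3 read higher on the B array by similar amounts, and VTC1 did not. PHO5, a secreted acid phosphatase with a near-identical neighbour gene, was at 2.22 and 3.62. PHO84, the high-affinity phosphate transporter, was at 1.45 and 2.11. PHM6 (1.81 and 1.43, at least 2.34-fold higher) and PHM8, a phosphatase (1.22 and 1.10), completed the called set. The regulators of the response were not called: PHO4 was at 0.19 and -0.07, PHO80 at 0.42 and -0.03, PHO85 at 0.12 and 0.58, and PHO81 at 0.07 and 1.30. The list median then went to 0.15 at 1.0 h and -0.34 at 1.5 h. PHO84 was at -0.52 and -1.35 on the mean at those times, whereas PHM6 was at 3.05 and 1.71.

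Genes under nitrogen catabolite repression, which yeast keeps off while good nitrogen sources last, were mixed. The median of 45 was 0.60, with 8 called higher and 1 lower, beside 2.85% and 2.79% of all genes. After MEP2, DAL5, an allantoate permease, was at 2.96 and 4.06. UGA1 and UGA4, the transaminase and the permease for gamma-aminobutyrate, were at 1.90 and 3.30 and at 3.08 and 1.27, the latter at least 3.93-fold higher. The amino acid permeases CAN1 (1.76 and 1.78) and AGP1 (1.68 and 1.48) agreed closely between arrays. Arginase CAR1 was at 2.16 and 1.02, and allantoicase DAL2 at 1.10 and 1.15. PUT4, the proline permease, went the other way, at -1.68 and -3.40, but was already at -1.46 on the 0.0 h A array. GAP1, the general amino acid permease, was at 0.06 and 0.22. The GATA activators GLN3 (0.00 and -0.39) and GAT1 (0.21 and 1.51) were not called. MEP2 was at 3.90 at 1.0 h and 2.82 at 1.5 h, and DAL5 at 2.42 and 2.11. Both were higher again later, MEP2 at 5.79 at 2.0 h and 5.36 at 4.0 h, and DAL5 at 3.53 and 3.61. At 6.0 h they were at -0.18 and -0.31, on arrays that did not correlate across genes (r = -0.02).

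The lists of amino acid synthesis outside the sulfur branch had lower medians. The histidine, lysine and arginine list had a median of 0.85, with 4 of 25 called higher and 0 lower, where 2.85% and 2.79% of all genes were. Of these, LYS1, the last enzyme of lysine synthesis, was at 1.96 and 2.27, with the arginine enzymes ARG1 at 1.52 and 1.95 and ARG8 at 1.18 and 2.12. The list of branched, aromatic, threonine and serine synthesis had a median of 0.35, with 4 of 43 called higher and 1 lower. ARO3, which starts aromatic synthesis, was at 1.93 and 1.70, and SER33, which starts serine synthesis, at 1.13 and 2.00. TRP2 (1.13 and 1.12) and BAT1 (1.13 and 1.07) were just past the limit. SER2, the last step of serine synthesis, was at -1.15 and -1.62. GCN4, the activator of amino acid synthesis genes whose output is set largely by translation, was at -2.59 and -0.59, below 0 on both arrays but not past 2-fold on B. Purine and pyrimidine synthesis had 0 of 28 called higher and 4 lower, against 2.79% of all genes lower: GUA1 (-1.99 and -1.93, at least 3.90-fold lower), IMD4 (-2.19 and -1.10, at least 2.37-fold lower), ADE1 (-1.06 and -1.09) and ADE17 (-1.01 and -1.11).

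**Figure D4:**
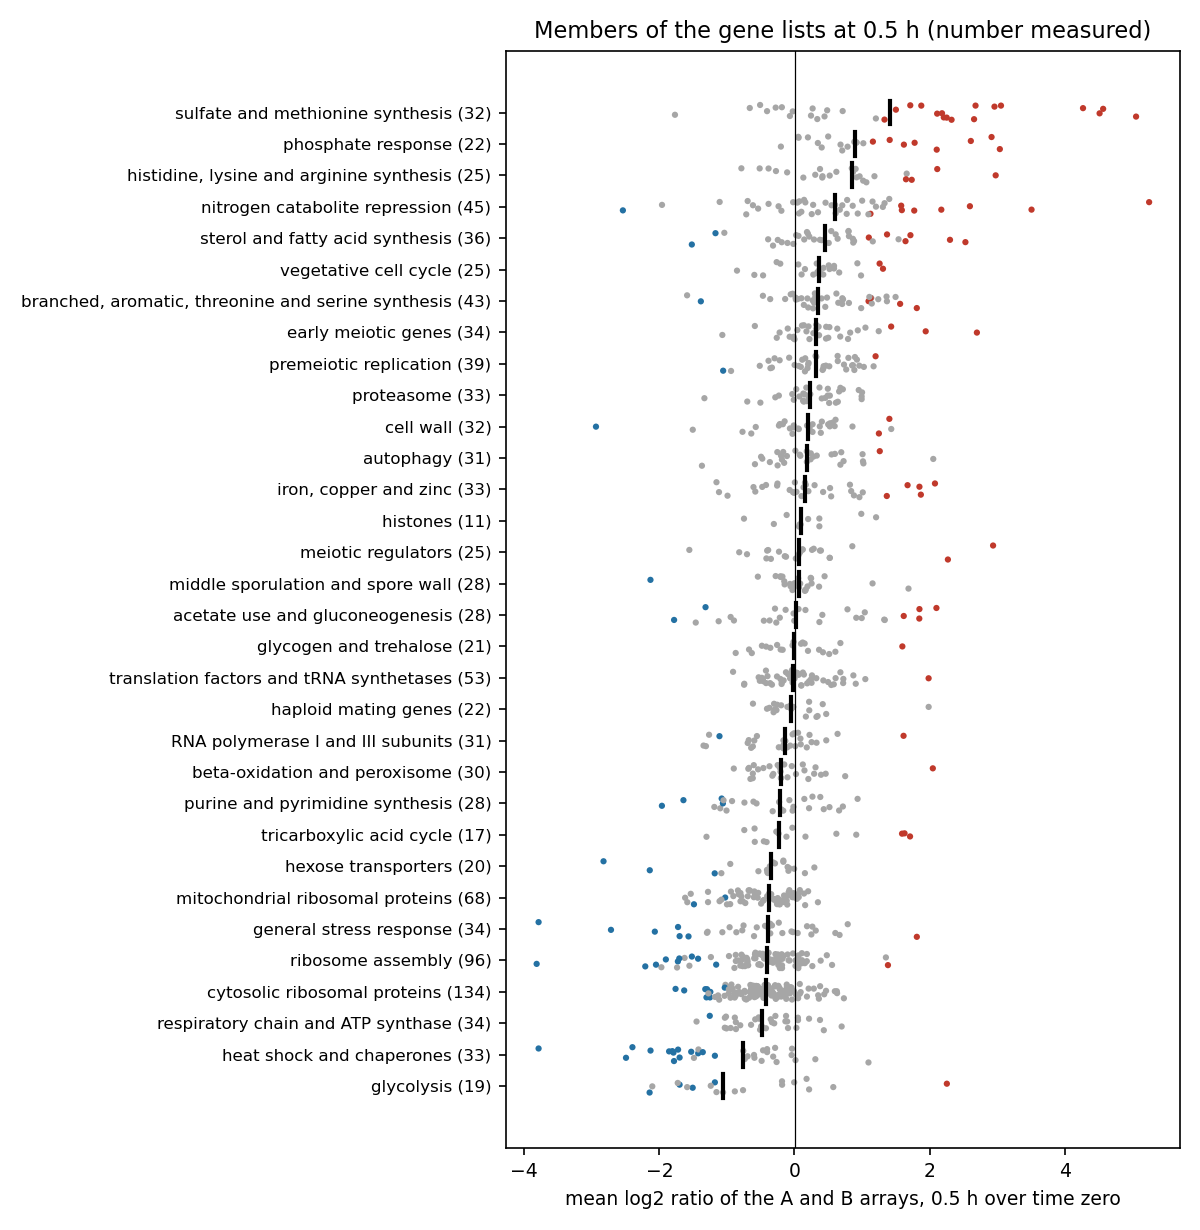
Mean log2 ratio of both 0.5 h arrays over time zero (horizontal) for every measured member of 32 gene lists, ordered by median (black bars); red and blue points are genes past 2-fold on both arrays, grey points are not. Sulfate and methionine synthesis leads at 1.42 and glycolysis closes at -1.06.

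Sterol and fatty acid synthesis had a median of 0.45 over 36 genes, with 6 called higher and 2 lower, beside 2.85% and 2.79% of all genes. INO1, which makes inositol for phospholipids, was at 1.88 and 3.18. ERG11, a sterol demethylase, was at 2.07 and 2.54, at least 4.93-fold higher. The sterol enzymes ERG2 (2.17 and 1.26), ERG13 (1.41 and 1.88), ERG5 (1.10 and 1.64) and ERG1 (1.03 and 1.17) were called too. OLE1, the fatty acid desaturase, was at -1.02 and -1.31, and INO2, an activator of phospholipid genes, at -1.35 and -1.69, at least 1.47-fold lower. ERG11 and ERG1 were below 0 at 1.0 h, at -0.90 and -1.02 on the mean. Among 33 genes of iron, copper and zinc use, 5 were called higher and 0 lower, with a median of 0.16; 2.85% of all genes were called higher. They were the metallothionein copies CUP1-1 (2.29 and 1.88) and CUP1-2 (1.46 and 1.89), which have the same sequence and cannot be told apart, the transporters SMF3 (1.22 and 2.52) and ZRT1 (1.75 and 1.95), and COT1 (1.67 and 1.06), which loads metal into the vacuole.

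The genes of sugar use that were called were lower, apart from PDC6. Glycolysis had the lowest median of all lists under the main processing, -1.06 over 19 genes measured on both arrays (-1.33 on A and -0.63 on B). Heat shock was lower on the B array alone (-0.81), with median centring, above blanks only and with the 0.0 h ratio taken off. Of the 19 glycolysis genes 4 were called lower and 1 higher, where 2.79% and 2.85% of all genes were. HXK1, a hexokinase, was at -1.96 and -2.33. CDC19, the pyruvate kinase, was at -1.71 and -1.70, at least 3.15-fold lower. GPM1, phosphoglycerate mutase, was at -1.76 and -1.25, and TDH2, a glyceraldehyde phosphate dehydrogenase with close copies, at -1.17 and -1.19, at least 2.26-fold lower. FBA1, the aldolase, was below 0 on both arrays at -3.97 and -0.24, and ADH1, the main alcohol dehydrogenase, at -2.58 and -0.88, so neither was called. PDC6, a minor pyruvate decarboxylase, was the one called higher, at 1.20 and 3.31. Among 20 hexose transporters 3 were called lower and 0 higher, again beside 2.79% of all genes lower, and 9 had opposite signs on the arrays. Their median was -0.34, but -0.82 with median centring and -0.95 over the genes above blanks. That filter passes a gene through its brighter channel, so it favours larger rises and falls. HXT7 was at -1.57 and -4.08, HXT6, its near-identical neighbour, at -1.34 and -2.95, and HXT2 at -1.34 and -1.02. Levels of HXT6 and HXT7 cannot be told apart where their spots share RNA.

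Genes of acetate use and gluconeogenesis split. Their median of 0.03 over 28 genes changed sign with the processing (-0.11 with median centring), and 4 were called higher and 2 lower, beside 2.85% and 2.79% of all genes. MLS1, the malate synthase of the glyoxylate cycle, was at 1.47 and 2.73. ACS2, an acetyl-CoA synthetase, was at 1.63 and 2.07. ICL2 (1.34 and 2.36), a mitochondrial relative of isocitrate lyase, and CRC1 (1.56 and 1.67), a carnitine carrier, were the others. ADH2, which oxidises ethanol, was at -1.37 and -2.19, at least 3.38-fold lower, and JEN1, the lactate carrier, at -1.24 and -1.39. The tricarboxylic acid cycle had a median of -0.24 over 17 genes, but -0.46 on A and 0.45 on B, and 3 were called higher and 0 lower, among them the isocitrate dehydrogenase subunits IDH1 (1.60 and 1.59) and IDH2 (1.66 and 1.60). The respiratory chain had a median of -0.49 over 34 genes, and COX13 (-1.09 and -1.42) was its only call. Its list median was -0.46 on A and on B, beside -0.37 and 0.27 on the 0.0 h arrays.

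Heat-shock chaperones were the list with the most genes called lower in share. These proteins fold, hold or refold other proteins and are made in large amounts under stress. The median of 33 was -0.76, with 14 called lower and 0 higher, where 2.79% of all genes were called lower. HSP26, a small heat-shock protein, was at -3.85 on A and -3.73 on B, with its 0.5 h channel above blanks on A only. The Hsp70 genes SSA4 and SSA3, which are close copies, were at -3.00 and -1.99 and at -2.06 and -2.73. FES1, an exchange factor of Hsp70, was at -2.08 and -2.19. HSP42, the other small heat-shock protein, was at -2.52 and -1.20, and SIS1, an Hsp40, at -1.32 and -2.30. Helpers of Hsp90 were among the calls, with CPR6 at -1.57 and -1.88, STI1 at -1.96 and -1.10, and AHA1 at -1.32 and -1.04. So were the mitochondrial chaperones HSP78 (-2.51 and -1.05), HSP10 (-1.73 and -1.86) and SSC1 (-1.69 and -1.02). HSP12 (-1.64 and -1.76) and HSP30 (-1.51 and -1.34, at least 1.85-fold lower), both at the plasma membrane, completed the 14. Hsp90 itself was not called, with HSP82 at -0.59 and -0.22 and HSC82 at -1.06 and 0.49. HSP104, the disaggregase, was at 0.10 and 0.52. The time-zero RNA on the 0.0 h A array gave this list a median of 0.54, and the B array 0.08; the list median was -1.34 at 1.0 h, with 14 of 32 called lower where 4.16% of all genes were.

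The wider stress response had a median of -0.38 over 34 genes, with 6 called lower and 1 higher, beside 2.79% and 2.85% of all genes. Besides HSP26 and HSP12 these were GRE1, a hydrophilin (-2.96 and -2.47), CTT1, the cytosolic catalase (-2.82 and -1.31, at least 3.64-fold lower), SIP18 (-1.26 and -2.18) and GPX1 (-1.39 and -1.75, at least 2.26-fold lower). DDR48 was the one called higher, at 1.82 and 1.80. The list median was -0.19 on A and -0.60 on B, beside -0.40 and 0.03 on the 0.0 h arrays. This list was above 0 at the following times, at 0.39 at 1.0 h and 0.68 at 1.5 h, and 4 of 34 members were higher at 0.5 h than on the mean of 1.0 and 1.5 h, where 3172 of 6270 genes were. HSP12 stood at -1.70 on the mean at 0.5 h, at 1.08 at 1.0 h and at 3.07 at 1.5 h.

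The lists for making ribosomes had medians below 0, and most of their genes were not called; over all genes 2.79% were called lower and 29.5% were below 0 on both arrays. Ribosome assembly factors had a median of -0.41 over 96 genes, with 9 called lower and 1 higher, and 62 below 0 on both arrays. CBF5, the pseudouridine synthase of ribosomal RNA, was at -2.12 and -5.52, a wide gap between the arrays, with its 0.5 h channel above blanks on A only. The box C/D particle proteins NOP58 and NOP56 were at -1.91 and -1.90 and at -1.95 and -1.50, at least 2.39-fold and 3.31-fold lower. RCL1 was at -1.07 and -3.35, LTV1 at -1.62 and -2.48, BRX1 at -2.25 and -1.16, MRT4 at -1.85 and -1.19, YTM1 at -1.82 and -1.03 and NUG1 at -1.16 and -1.16; of these 6, all but RCL1 were above blanks at 0.5 h on neither array, with bounds from 1.90-fold lower (MRT4) to 3.71-fold lower (LTV1). RPF2 was called higher, at 1.22 and 1.55. Cytosolic ribosomal protein genes had a median of -0.42 over 134, with 8 called lower, 0 higher and 86 below 0 on both arrays. Many are near-identical pairs. Their median was -0.35 on A and -0.50 on B, beside -0.31 and 0.02 on the 0.0 h arrays. With the 0.0 h ratio taken off it was -0.30. RPS3, which has no copy, was at -1.93 and -1.60. RPL3, likewise single, was at -1.24 and -1.35, then at -2.83 at 1.0 h, when the list median was 0.41. Mitochondrial ribosomal protein genes had a median of -0.38 over 68, with 2 called lower, a share near the 2.79% of all genes: MRPL17 (-1.86 and -1.12, at least 2.73-fold lower) and MRPL9 (-1.01 and -1.04). Their list median was -0.37 on A and on B, beside -0.25 and 0.04 on the 0.0 h arrays. The assembly list, in contrast, stood at 0.15 on the 0.0 h A array.

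Other low genes came from no single list. SPG1, needed for survival in stationary phase, was at -3.43 and -3.89, at least 12.6-fold lower. ZPR1, a chaperone of the elongation factor eEF1A, was at -3.19 and -3.53, at least 5.92-fold lower. TIP1, a cell wall mannoprotein, was at -2.53 and -3.35. All 3 had the same size on both arrays to within 1 unit of log2. POG1 (-2.25 and -3.30, at least 5.32-fold lower), ACF4 (-2.84 and -2.46, at least 5.19-fold lower), SLH1, an RNA helicase (-1.58 and -3.63), and HBT1 (-2.84 and -2.26) followed. ZPR1 was as low at 1.0 h and 1.5 h, at -3.35 and -3.48, while SPG1 was at 1.00 and 1.56 by then.

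The regulators of meiotic entry had a median of 0.07 over 25 genes, which was -0.14 over those above blanks, and 2 were called higher, beside 2.85% of all genes. IME1, the activator that starts the programme, was at -0.78 and -0.62, below 0 on both arrays but not past 2-fold. IME2, the meiotic kinase, was at 1.92 and 3.96, and RIM4, an RNA-binding protein of meiosis, at 2.06 and 2.48. Both must be read beside 0.0 h, where IME2 was at 2.41 on A and 0.44 on B and RIM4 at 1.58 and 0.10. With these values taken off, IME2 was at -0.49 on A and 3.52 on B and RIM4 at 0.48 and 2.38, so neither was past 2-fold on A. CLN3, the cyclin that starts the mitotic cycle, was at -0.80 and -2.31. Of kinases and their subunits, RIM11 was at -0.76 and -0.88, MCK1 at 1.07 and 0.65, RIM15 at 0.47 and 0.28, SNF1 at -0.23 and 0.80, BCY1 at 0.16 and -0.97, TPK2 at 0.24 and -0.10 and TPK3 at 0.41 and 0.11. Of DNA-bound regulators, UME6 was at 0.23 and 0.82, RME1 at -0.05 and 0.84, SOK2 at -0.28 and 0.00, YHP1 at 0.10 and 0.14, MSN2 at 0.42 and -0.31, MSN4 at -0.13 and 1.17, RIM101 at -0.52 and 0.07, SUM1 at -0.65 and -0.05, and NDT80, the activator of the middle genes, at -0.01 and 0.18. The corepressor subunits SIN3 (0.14 and 0.10) and RPD3 (0.07 and -0.85), the cyclin SSN8 (0.20 and -0.16) and the RNA methyltransferase IME4 (0.11 and -0.94) gave no call. No other regulator was past 2-fold on both arrays.

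Early meiotic genes had a median of 0.32 over 34 genes at 0.5 h and 0.23 at 0.0 h. The 0.5 h median was 0.03 once the 0.0 h ratio was taken off and 0.63 with normexp. Over the genes above blanks it was 1.05, but a gene dim at time zero passes that filter only where its 0.5 h channel is bright. Of the 34, 20 were above 0 on both arrays and 3 were called higher, where 30.9% and 2.85% of all genes were. MEK1, a meiotic checkpoint kinase, was at 1.86 and 3.54, at least 5.58-fold higher, with a 0.0 h mean of 0.42. DMC1, the meiotic strand exchange protein, was at 2.41 and 1.47, with 1.10 at 0.0 h. HOP1, of the chromosome axis, was at 1.57 and 1.29 but at 1.79 at 0.0 h, and with that taken off its mean was -0.36. In this list 5 of 34 genes were above blanks on both arrays. At 1.5 h, 8 were called higher, where 5.1% of all genes were, and DMC1 was at 4.17. Histone genes, a mark of DNA replication, had a median of 0.09 over 11 genes at 0.5 h that changed sign with the processing (-0.16 after the 0.0 h ratio was taken off), and 0 were called. The linker histone HHO1 (0.75 and 1.23) and the centromeric CSE4 (0.85 and 1.57) were the highest, and the variant HTZ1 (-0.14 and -1.35) the lowest. Histones had 6 called higher at 1.0 h and 9 of 10 measured at 1.5 h, beside 3.86% and 5.1% of all genes, and 0 of 11 were higher at 0.5 h than on the mean of 1.0 and 1.5 h. Haploid mating genes, which diploid cells keep off and which serve here as markers of cells that cannot sporulate, had a median of -0.05 over 22 genes, which was 0.17 over those above blanks, with 0 called in either direction, and 3 of 22 were above blanks on both arrays.

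**Figure D5:**
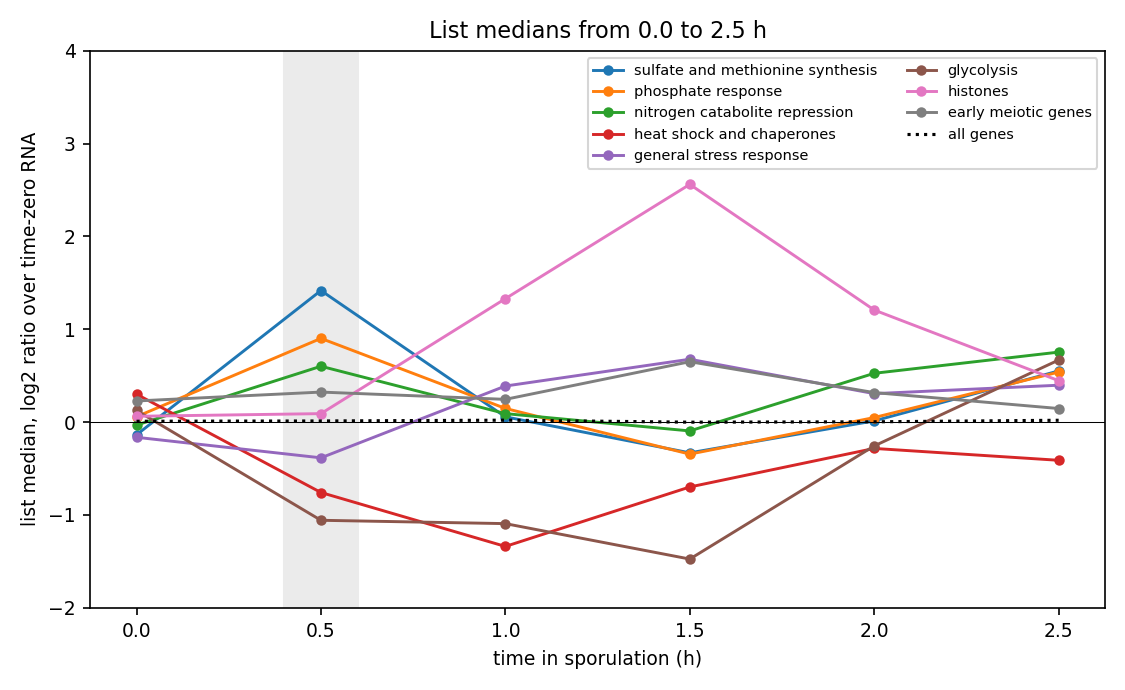
Median log2 ratio over time zero (vertical) of 8 gene lists and of all genes from 0.0 to 2.5 h of sporulation (horizontal); the band marks 0.5 h. The sulfate and phosphate lists stand highest at 0.5 h, at 1.42 and 0.90, heat shock and glycolysis are below 0, and histones stand at 0.09 before 1.33 at 1.0 h.

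A linear model in limma over all 12 samples, in which the lone 0.5 h sample was assumed to vary like the others, gave few calls at an adjusted p of 5%. Against the 0.0 h sample, 1 of 6270 genes (0.0159%) was called higher and 0 lower, and 234 had an unadjusted p below 0.05. That gene, YKR012C, an identifier without a symbol in the gene table, was not past 2-fold on the A array (0.92), and its B array value of 12.46 came from spots at 4.95 and 19.97 after loess. Before loess these spots were at 3.48 and 11.86. In the second of these the time-zero intensity was 27, against 9954 in the first. Without genes whose spots differ by more than 2 on an array, 0 genes were called (228 at an unadjusted p below 0.05). MET3 was next, 5.26 ± 0.83 (SE) above 0.0 h with a limma adjusted p of 0.103, and with both arrays above 0. YGR190C, also without a symbol, was at -3.60 ± 0.57 with the same adjusted p, and ZPR1 at -4.19 ± 0.75 with 0.235. AIF1 followed at 2.86 ± 0.55 with 0.356. Leaving out the 1.0, 1.5, 3.5, 4.0, 4.5, 5.0 or 5.5 h sample left 0 calls.

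Against the mean of 1.0 and 1.5 h, limma called 2 of 6270 genes higher (0.0319%) and 1 lower (0.0159%), with 452 at an unadjusted p below 0.05. CYS4, the first enzyme from homocysteine to cysteine, was 4.28 ± 0.62 (SE) higher at 0.5 h, with a limma adjusted p of 0.0464 and both 0.5 h arrays (1.62 and 2.89) above both later means (-1.54 and -2.52). YGR190C was at -3.92 and -2.47 at 0.5 h, at least 3.16-fold lower than time zero, and differed from its mean at 1.0 and 1.5 h by -3.59 ± 0.49 (limma adjusted p = 0.0416). YKR012C was the third, with the spot described above. The time-zero channel of CYS4 at 0.5 h was above blanks on B only. SPG1 (-4.94 ± 0.85, limma adjusted p = 0.119) missed the limit, as did YDR149C (2.91 ± 0.48, limma adjusted p = 0.109), whose 0.5 h arrays disagreed in sign at -0.23 and 4.32. These calls depended on single samples: 0 were left without the 1.0, 1.5, 4.5, 5.0, 5.5 or 6.0 h sample, 1 without the 2.0 or 2.5 h sample, 3 without the 0.0 or 3.5 h sample and 4 without the 4.0 h sample. Of the genes called higher at 0.5 h, 159 of 178 were above their mean at 1.0 and 1.5 h, and of those called lower, 128 of 175 were below it; choosing genes by their 0.5 h values favours both counts.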

How the data were processed

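Per the file headers and labels, the authors quantified 2 scanned images of each array, and the deposited intensity of each spot was taken as background-subtracted because some values are below 0. Their deposited table holds log2 ratios per gene and sample, whose method, centring and scale no source used here states. It served as an alternative. Channel 1 was taken as Cy3 throughout, though the files do not state the channel order. The B headers list the images in the other order, but only this reading gives A and B ratios of one sign (r = 0.48, against -0.48). The reading of B was thus chosen by its match to A, and every call on both arrays rests on it. The direction on A rests on channel 1 being Cy3 as well.

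Each array has 12614 gene spots, 250 blanks and 192 Arabidopsis controls. Spots marked U or Z, controls and values at or below 0 were left out. Ratios were corrected by loess (span 0.3, 4 iterations), B ratios were turned, and spots and then arrays were averaged. Symbols came from RefSeq's gene table for 5716 identifiers by locus tag and 18 by an older name; 559 kept their own. The limma model (R 4.3.3, limma 3.58.1) had 6 groups over 12 samples with Benjamini-Hochberg adjustment; 217 of 6270 genes rest on 1 array at some time. Its spread is that between neighbouring times and includes real change. With 1 pool at 0.5 h, the number of arrays limits precision. Lower bounds set the dim channel at the lowest signal above blanks, or at the gene's own signal where that was higher, after Aquantile scaling. In the second case, as for SPG1, the bound is the measured fold and no smaller minimum. Without further swaps the bounds are open to dye bias. The steps were tested on simulated data. For the rule of both arrays, changes were put on genes above blanks in both channels of the 0.0 h arrays. That test therefore does not cover signals as dim as many at 0.5 h.

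Named genes were the 12 highest and 12 lowest called genes above blanks, up to 4 members of each of 32 lists with the largest values of one sign, the meiotic regulators, and the 5 smallest p-values of each contrast; the other called members of a list were added after their values were seen. A few genes that the rule names are not reported here. Members and lists were chosen with earlier results of these data known. Alternatives covered background, centring, scaling, spot and dim-gene filters, single arrays, fold limits, windows and left-out samples. The filter of genes above blanks asked for signal in either channel on both arrays. A gene dim in one channel passed only where the other was bright, so list medians under this filter favour larger rises and falls.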

Additional observations from a re-analysis of the deposited data

Results flagged for a closer look

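The 3 results below stood out because 0.5 h differed from the mean of the 1.0 and 1.5 h samples in the limma test of that difference (SE, adjusted p over 6270 genes). CYS4, which makes cystathionine from homocysteine, differed by 4.28 ± 0.62 (limma adjusted p = 0.0464). YGR190C, which has no symbol in the gene table, differed by -3.59 ± 0.49 (limma adjusted p = 0.0416). YKR012C, also without a symbol, differed by 5.08 ± 0.68 (limma adjusted p = 0.0416), but 1 of its 2 spots on the B array had a time-zero intensity of 27 and a log2 ratio of 19.97 after loess, 11.86 before it. No group of samples was large enough for a check of single outlying samples.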

How the results depend on the processing

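No paired analysis was possible because 0.5 h is 1 sample and the replicate numbers follow the order of times. The count of genes past 2-fold on both 0.5 h arrays, 179 higher and 175 lower, became 278 and 270 with normexp, 441 and 452 at 1.5-fold, 24 and 14 at 4-fold, 396 and 535 on the A array alone, 570 and 478 on the B array alone and 12 and 19 in the deposited column; it stayed within 1.5 times under the other 9 alternatives. The 1 limma call against 0.0 h became 0 with normexp, median centring, loess per print block, disagreeing spots left out, the A array alone, the deposited table and the 5.0 and 6.0 h samples left out (9 to 308 genes at an unadjusted p below 0.05), 9 with scaling between arrays and 10 as a ratio against 0. The 3 limma calls against 1.0 and 1.5 h became 0 with median centring, disagreeing spots left out, the A array alone, the deposited table and the 5.0 and 6.0 h samples left out (174 to 598 at an unadjusted p below 0.05), 1 with loess per print block or the B array alone and 15 with scaling. Leaving out 1 sample gave 0 to 1 calls against 0.0 h and 0 to 4 against 1.0 and 1.5 h. Loess per print block, disagreeing spots and the joint removal of 5.0 and 6.0 h, whose arrays did not correlate, were chosen after seeing the data. The cause of these shifts was not tested, apart from the removed spot of YKR012C.

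Of 84 named called genes, 2 changed sign once the 0.0 h ratio was taken off, HOP1 at -0.36 and EGT2 at -0.075. In the deposited column 25 changed sign. Genes that were higher on the arrays were listed there at -0.055 (MEP2), -0.34 (MET6), -0.0012 (FRA1), -0.14 (DMC1), -0.063 (HOP1), -0.29 (RPC37), -0.037 (IDH1), -0.0090 (GLG1), -0.091 (LYS1), -0.036 (SMF3), -0.35 (ERG2) and -0.064 (DSE1). Genes that were lower were listed at 0.10 (ZPR1), 0.19 (YGR190C), 0.15 (ACF4), 0.032 (RFC2), 0.22 (SPR28), 0.011 (RPS9B), 0.11 (MRPL17), 0.32 (COX13), 0.38 (GUA1), 0.098 (SSA4), 0.22 (SSA3), 0.43 (FES1) and 0.0060 (CTT1). No named called gene with a value changed sign under the other alternatives. For single arrays, scaling, above blanks only and disagreeing spots left out, the rule for a call fixed this in advance. Without spots marked S 73 had a value, and above blanks only 77. The medians of the sulfate list (1.13 to 2.15), the phosphate list (0.69 to 1.09), the nitrogen list (0.31 to 0.72), heat shock (-1.48 to -0.68) and glycolysis (-1.37 to -0.63) kept their sign under every alternative but the deposited column, where heat shock (0.10) and glycolysis (0.13) were above 0 and 18 of 32 list medians changed sign. The 2.15 of the sulfate list came from the genes above blanks only, a filter that favours larger changes. Signal over blanks limits the early meiotic and mating lists.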

Other observations

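Among lists not described so far, translation factors and tRNA synthetases stood apart from the following times more than from time zero. Their median at 0.5 h was -0.02 over 53 genes, a value whose sign changed on the B array alone (0.19). VAS1, the valyl-tRNA synthetase, was the only call (1.02 on A and 2.95 on B), where 2.85% of all genes were called higher. Against the mean of 1.0 and 1.5 h the median difference was 0.98, with 45 of 52 genes higher at 0.5 h, where 3172 of 6270 genes were. Acetate use had a median difference of 1.28 with 23 of 26 higher. Proteasome genes had a median of 0.23 over 33 with 0 called higher or lower, beside 2.85% and 2.79% of all genes. RPN4, the activator of proteasome genes, was at -2.12 and -0.55.

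Few calls came from several other lists, beside 2.85% of all genes called higher and 2.79% lower. Those higher were 1 of 31 in autophagy, 1 of 30 in peroxisomes, 1 of 21 in glycogen and 2 of 25 in the cell cycle. Higher and lower were 2 and 1 of 32 in the cell wall, 1 and 1 of 31 in polymerases and 1 and 1 of 39 in replication. In middle sporulation 1 of 28 was lower. Counts this small are not read as a result about these lists. ATG1, the kinase that starts autophagy, was at 1.05 and 1.48, at least 2.40-fold higher. PEX21, a peroxisomal import factor, was at 1.01 and 3.09, at least 3.46-fold higher. GLG1, which primes glycogen, was at 2.08 and 1.12, but at 1.81 on the 0.0 h A array. With the 0.0 h ratio taken off, the A values were 0.62 for ATG1, 0.98 for PEX21 and 0.27 for GLG1, so none of these 3 stayed past 2-fold on both arrays. The medians of their lists were 0.18 for autophagy, -0.20 for peroxisomes and -0.01 for glycogen; loess per print block turned the last 2 to 0.02 and 0.0040. In the cell wall list CRH1 (1.11 and 1.70) and EXG1 (1.26 and 1.24), both wall enzymes, were called higher beside TIP1, and in the cell cycle list EGT2 (1.42 and 1.20) and DSE1 (1.28 and 1.24), both of daughter cell separation; EGT2 had a 0.0 h mean of 1.39. RPC37, a subunit of RNA polymerase III, was at 1.79 and 1.44 and RPA14, of polymerase I, at -1.16 and -1.06. In the replication list POL30, the sliding clamp, was at 1.01 and 1.39, at least 2.18-fold higher, and RFC2, of the clamp loader, at -1.09 and -1.02. SPR28, a sporulation septin, was at -2.56 and -1.70, at least 4.38-fold lower.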
